A study of Mus musculus with 8 samples.

Results

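The sites described here are the CTCF sites at promoters of nuclear genes of the mitochondrial respiratory chain. A site was a member when its centre lay within 3000 bp of an annotated transcript start of a nuclear protein-coding gene whose symbol begins with Nduf (complex I), Sdha to Sdhd (complex II), Uqcr (complex III), Cox4 to Cox8 (complex IV) or Atp5 (complex V). This gave 97 of 104008 sites in all: 42 at complex I genes, 5 at complex II, 12 at complex III, 18 at complex IV and 20 at complex V. The rule used positions and symbols only, and no measured value.

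CTCF binding was mapped by ChIP-seq in iMEF2, 1 line of immortalised mouse embryo fibroblasts (called KO2 elsewhere in the study) in which both Ash2l alleles are floxed and a Cre-ER recombinase is expressed. The +HOT cells received 5 nM 4-hydroxytamoxifen (HOT) for 7 days, which activates the recombinase and removes exon 4 of Ash2l, a core subunit of the enzymes that methylate histone H3 at lysine 4. Control cells carry the same floxed alleles and the same Cre-ER and received the ethanol vehicle (-HOT) for 7 days. Each group has 2 immunoprecipitations, which the study calls technical replicates, so p-values measure the spread between libraries of 1 cell line. The +HOT cells stop dividing in the course of the treatment and were handled differently from -HOT cells at the later passage, so that loss of Ash2l, arrest and handling cannot be told apart.

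The respiratory chain passes electrons from NADH (complex I) or succinate (complex II) through ubiquinone to complex III, on to cytochrome c and through complex IV to oxygen, and complex V uses the resulting proton gradient to make ATP. Most subunits are encoded in the nucleus, by genes whose promoters are often CpG islands and are known to be bound by NRF1, GABP (an ETS factor) and YY1. CTCF is a zinc finger protein that holds the anchors of chromatin loops and also binds near many promoters. The core of its motif can be written CCANNAGNNGGC, where N is any base.

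Reads in sites totalled 9280701 and 7653295 in the +HOT libraries, against 4221752 and 3126722 in the -HOT libraries. Values below are normalised reads, that is counts scaled to a common library size by TMM, and a log2 fold change (log2FC) is that of +HOT over -HOT with its standard error (SE). At member sites the raw count was between 6 and 501 in the +HOT libraries and between 2 and 370 in the -HOT libraries, so the weakest sites are measured with few reads. There are 13 sites inside Ash2l, with raw counts between 4 and 64 in +HOT libraries and between 3 and 30 in -HOT libraries. CTCF reads check neither the deletion nor the cell type, and neither was tested.

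Of the 93 genes chosen by symbol, 57 (61.3%) had a site in the window, compared with 11566 of 22225 protein-coding genes (52.0%). They include 6 assembly factor genes with 7 tested sites. A further 7 genes, Cox4nb among them, match by prefix only and hold 6 tested sites. Both kinds are counted in the complexes. A single site was found at 28 genes, 2 sites at 21, 3 at 5 and 4 at 2 genes, and Ndufab1 had 5. No site lay near 36 genes, among them Sdhb and Sdhc of complex II, the Rieske protein gene Uqcrfs1, and the complex I core genes Ndufs1 and Ndufs3. By their centre, 37 member sites lay outside protein-coding genes, 47 in an intron, 8 in a coding exon and 5 only in a UTR. At 34 member sites the start of another protein-coding gene was in the window as well, and at 20 it was the nearer start, so those sites cannot be ascribed to the respiratory chain gene alone. In the following, a site is named by its gene and its distance in bp from the nearest start of that gene, negative when upstream. These starts include alternative transcripts, so a site upstream of one start may lie inside the gene.

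Sequences around the motif core are given for a selection of sites that differ in response. In each, the strand is the one on which the core reads 5′ to 3′, the coordinates are mm9, and capitals mark the core and, where present, a 20-base stretch described below. The Uqcrh, Ndufs7, Ndufab1, Atp5d, Atp5o and +1721 Atp5l sites lost reads in +HOT cells. The Ndufa6, Cox6a1 +1164 and Cox7a1 sites were strong sites that were moderately lower. The Cox6a1 -2495 site did not pass the test and is shown because it carries the same stretch, and it was chosen after its values were seen.
Uqcrh +1604, chr4:115745929-115746078, minus strand: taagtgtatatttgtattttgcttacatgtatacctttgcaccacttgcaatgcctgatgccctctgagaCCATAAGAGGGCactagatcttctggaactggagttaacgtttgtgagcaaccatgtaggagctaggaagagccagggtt
Ndufs7 -1042, chr10:79710740-79710889, minus strand: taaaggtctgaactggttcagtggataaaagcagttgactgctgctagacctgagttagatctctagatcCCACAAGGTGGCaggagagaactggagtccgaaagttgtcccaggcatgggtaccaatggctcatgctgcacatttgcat
Ndufab1 +808, chr7:129243969-129244118, plus strand: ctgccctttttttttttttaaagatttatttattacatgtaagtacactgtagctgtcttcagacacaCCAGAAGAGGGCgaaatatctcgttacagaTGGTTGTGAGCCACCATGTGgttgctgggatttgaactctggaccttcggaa
Atp5d +896, chr10:79606017-79606166, plus strand: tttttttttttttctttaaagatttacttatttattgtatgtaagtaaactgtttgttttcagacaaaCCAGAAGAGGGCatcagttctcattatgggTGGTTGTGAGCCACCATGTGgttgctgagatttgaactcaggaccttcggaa
Atp5o -498, chr16:91932340-91932489, plus strand: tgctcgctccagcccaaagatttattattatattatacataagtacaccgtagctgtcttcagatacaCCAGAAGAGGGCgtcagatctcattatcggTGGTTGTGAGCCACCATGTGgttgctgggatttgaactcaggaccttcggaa
Atp5l +1721, chr9:44727047-44727196, minus strand: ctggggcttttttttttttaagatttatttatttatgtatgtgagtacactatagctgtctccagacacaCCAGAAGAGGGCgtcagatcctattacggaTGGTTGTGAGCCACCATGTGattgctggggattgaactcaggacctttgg
Cox6a1 -2495, chr5:115801236-115801385, plus strand: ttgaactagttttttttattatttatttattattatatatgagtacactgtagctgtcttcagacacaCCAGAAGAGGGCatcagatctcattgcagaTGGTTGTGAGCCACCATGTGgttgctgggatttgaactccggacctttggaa
Ndufa6 -175, chr15:82184792-82184941, plus strand: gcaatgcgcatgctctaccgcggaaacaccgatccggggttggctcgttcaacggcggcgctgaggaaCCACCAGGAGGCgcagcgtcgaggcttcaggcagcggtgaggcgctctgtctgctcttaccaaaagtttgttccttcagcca
Cox6a1 +1164, chr5:115797723-115797872, minus strand: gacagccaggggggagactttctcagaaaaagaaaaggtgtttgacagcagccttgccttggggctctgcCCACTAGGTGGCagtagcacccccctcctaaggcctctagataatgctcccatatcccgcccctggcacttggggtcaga
Cox7a1 -2658, chr7:30966448-30966597, plus strand: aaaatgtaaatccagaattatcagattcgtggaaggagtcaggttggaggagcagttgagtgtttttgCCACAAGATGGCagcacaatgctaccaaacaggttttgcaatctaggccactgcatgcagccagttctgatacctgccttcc

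CTCF reads at respiratory chain promoters were lower in +HOT than in -HOT cells at 37 of the 94 member sites that passed the low count filter, and higher at 2 (edgeR, adjusted p below 0.05). The shares are 39.4% lower and 2.13% higher. Among all tested sites 9.08% were lower and 9.45% higher, and among the 18025 tested promoter sites of any protein-coding gene 23.1% were lower and 3.43% higher. The median log2FC was -0.38 over the members, -0.26 over all promoter sites and 0.01 over all sites. With the further requirement of an absolute log2FC above 1, 12 members were lost and 1 was gained, against backgrounds of 5.68% lost and 1.19% gained among promoter sites and 1.5% and 3.9% among all sites. Both +HOT libraries were below both -HOT libraries at 58 of the tested members, compared with 48.7% of promoter sites and 27.2% of all sites, and above them at 8, compared with 14.5% and 29.6%. The 3 members that were not tested are weak sites at Ndufa11, Sdhaf2 (-321) and Uqcrb (-2222), with at most 17.9 normalised reads in any library.

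The complexes were not alike in their medians, which are descriptions without a test. Complex I had a median log2FC of -0.42, with 21 of 41 tested sites lower, none higher and 6 lost. Complex II had a median of -0.36, with 2 of 4 lower. Complex III had a median of -0.24, with 3 of 11 lower and 2 lost, and complex V one of -0.40, with 7 of 20 lower, 3 lost and 1 higher. Complex IV had a median of -0.08, with 4 of 18 lower, 1 lost and 1 gained. When only sites within 1000 bp of a start were kept, the medians were -0.45 for complex I, -0.48 for II, -0.61 for III, 0.07 for IV and -0.63 for V. These medians rest on 47 tested sites, few of them at complexes II, III and IV. All promoter sites within 1000 bp had a median of -0.38. With libraries scaled along site strength and GC, the medians of complexes I, IV and V were close, at -0.13, -0.13 and -0.14. Those of complexes II and III were lower, at -0.27 and -0.30.

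**Figure D1:**
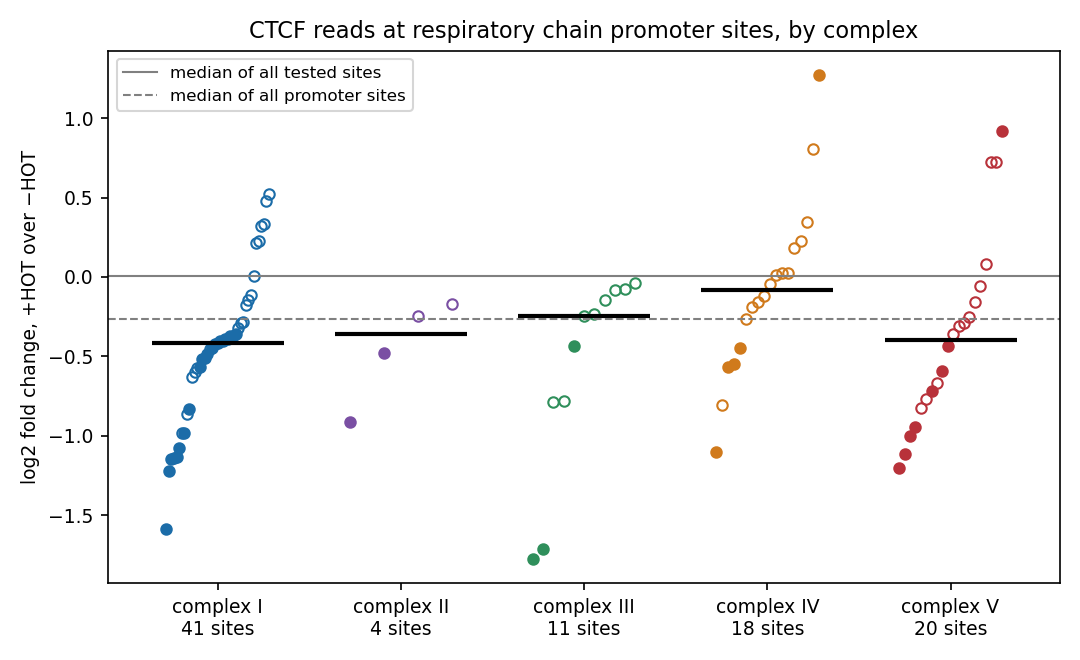
Log2 fold change (+HOT over -HOT, vertical axis) of each tested member site by complex; filled points passed edgeR at an adjusted p below 0.05, open points did not, and black bars are medians. Complex I (median -0.42) and complex V (-0.40) sit below the median of all promoter sites (dashed, -0.26), and complex IV (-0.08) sits above it.

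The strongest decreases were at 2 sites in an intron of Uqcrh, which encodes the hinge protein of complex III. At +698 (chr4:115746767-115747110) the site had 28.7 and 28.1 normalised reads in +HOT libraries, against 91.2 and 105 in -HOT libraries. The groups were far apart (log2FC -1.78 with SE 0.22, edgeR adjusted p = 1.78e-08). The neighbouring site at +1604 (chr4:115745828-115746237) had 26.7 and 27.3 reads in +HOT libraries, against 89.7 and 87.6 in -HOT libraries (log2FC -1.71, SE 0.23, edgeR adjusted p = 1.09e-07). The other Uqcrh sites did not follow. The site at -615, in an intron of the neighbour Lrrc41, had 56.0 and 60.8 reads in +HOT libraries and 64.7 and 73.6 in -HOT libraries (log2FC -0.24, edgeR adjusted p = 0.501), and the site at +1898, at another Uqcrh start, 63.8 and 49.9 in +HOT libraries and 60.3 and 67.7 in -HOT libraries (log2FC -0.15, edgeR adjusted p = 0.719).

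Among complex I genes, the largest decrease was in an intron of Ndufa12, an accessory subunit gene. This site at +171 (chr10:93661662-93662244) had 48.8 and 26.5 reads in +HOT libraries, against 115 and 117 in -HOT libraries. The +HOT libraries differed from each other but stayed well below the -HOT libraries (log2FC -1.59, SE 0.21, edgeR adjusted p = 5.91e-08). Ndufs7 encodes an iron-sulphur core subunit next to the ubiquinone site. Its site at -1042 (chr10:79710618-79711031) had 51.4 and 42.9 reads in +HOT libraries, against 104 and 105 in -HOT libraries (log2FC -1.14, SE 0.20, edgeR adjusted p = 1.66e-05). The Ndufs7 site at +2940 did not pass the test, with 31.3 and 28.1 reads in +HOT libraries and 27.9 and 37.8 in -HOT libraries.

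Ndufa4l2 is a paralogue of Ndufa4 that is known as a hypoxia-induced gene, and it is not an ordinary complex I subunit gene. Upstream of it lie neighbouring sites. The site at -1960 (chr10:126949728-126950343) was the strongest of all members, with 319 and 331 reads in +HOT libraries, against 544 and 619 in -HOT libraries (log2FC -0.83, SE 0.08, edgeR adjusted p = 4.03e-12). The site at -2693 (chr10:126948985-126949619) had 63.2 and 64.7 reads in +HOT libraries, against 129 and 141 in -HOT libraries, and was lost (log2FC -1.07, SE 0.17, edgeR adjusted p = 4.01e-06). Both sites were thus lower with no overlap of the groups.

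Further lost complex I sites were weaker and their libraries more variable. Ndufa13, which encodes the accessory subunit also called GRIM-19, had a site at +996 (chr8:72425290-72425632), nearer to the start of Tssk6, with 39.7 and 24.96 reads in +HOT libraries and 55.9 and 93.6 in -HOT libraries (log2FC -1.14, SE 0.25, edgeR adjusted p = 0.000624).

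Ndufab1, which encodes the mitochondrial acyl carrier protein, had the most sites of any member gene, and they spread widely. The site at +808 (chr7:129243886-129244221) was lost, with 11.7 and 18.7 reads in +HOT libraries, against 25.007 and 47.8 in -HOT libraries (log2FC -1.22, SE 0.36, edgeR adjusted p = 0.0105). The site at +2150 was lower, with 169 in both +HOT libraries, against 207 and 239 in -HOT libraries (log2FC -0.39, SE 0.12, edgeR adjusted p = 0.0124). At -999 the value was 36.5 and 41.3 in +HOT libraries and 17.7 and 47.8 in -HOT libraries, so the groups overlapped (log2FC 0.33, edgeR adjusted p = 0.511). The site at -196 was weak and did not pass (log2FC -0.60, edgeR adjusted p = 0.488).

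Further complex I sites that were lower lay at Ndufb3 (-1882), with 44.9 and 45.2 reads in +HOT libraries, against 80.9 and 99.5 in -HOT libraries (log2FC -0.98, SE 0.21, edgeR adjusted p = 0.000401), and at Ndufa3, Ndufa7 (+1458), Ndufaf3 (+285) and Ndufb9, with log2FC between -0.57 and -0.39. The Ndufb3 site lies in an intron of the neighbour Fam126b and nearer to its start. At Ndufb7 and Ndufb10 the upstream sites at -801 and -1543 had both +HOT libraries above both -HOT libraries, without passing the test (log2FC 0.52 and 0.48, edgeR adjusted p = 0.174 and 0.162).

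At complex V genes, the lost sites were at Atp5d (F1 subunit delta), Atp5o (the OSCP subunit of the peripheral stalk) and Atp5l (subunit g). The Atp5d site at +896 (chr10:79605824-79606199) had 20.2 and 17.9 reads in +HOT libraries, against 35.3 and 55.7 in -HOT libraries (log2FC -1.20, SE 0.31, edgeR adjusted p = 0.00357). The Atp5o site at -498 (chr16:91932255-91932606) had 26.7 and 15.6 in +HOT libraries, against 38.2 and 57.7 in -HOT libraries (log2FC -1.11, SE 0.31, edgeR adjusted p = 0.00605). The groups did not overlap at either site. The Atp5l site at +1721 (chr9:44726948-44727261) had 26.0 and 16.4 in +HOT libraries, against 39.7 and 47.8 in -HOT libraries, and just passed the fold limit (log2FC -1.0001, SE 0.31, edgeR adjusted p = 0.0148). Upstream of Atp5l, at -667 (chr9:44728963-44730022), was among the strongest member sites, a region of 1060 bp with 326 and 300 reads in +HOT libraries, against 538 and 490 in -HOT libraries (log2FC -0.72, SE 0.08, edgeR adjusted p = 1.24e-09).

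Atp5b, the catalytic F1 subunit gene, had 4 sites, and none passed the test. Their log2FC lay between -0.77 and -0.16. The strongest, at +2002 and nearer to a start of Baz2a, had 171 and 146 reads in +HOT libraries and 218 and 165 in -HOT libraries (edgeR adjusted p = 0.0967).

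Complex IV held both directions. Cox5a encodes a nuclear subunit of the enzyme and had 3 sites. The weak site at -731 (chr9:57368172-57368444) was lost, with 16.9 and 10.9 reads in +HOT libraries, against 29.4 and 31.8 in -HOT libraries (log2FC -1.10, SE 0.36, edgeR adjusted p = 0.0247). The intron site at +2705 (chr9:57371422-57372067) was lower, with 151 and 122 in +HOT libraries, against 212 and 189 in -HOT libraries (log2FC -0.55, SE 0.13, edgeR adjusted p = 0.00112). At -209 the groups overlapped (log2FC -0.04, edgeR adjusted p = 0.955). Cox6a1, the widely expressed isoform of subunit 6a, had a strong intron site at +1164 (chr5:115797453-115798065) with 158 and 168 reads in +HOT libraries, against 229 and 255 in -HOT libraries (log2FC -0.57, SE 0.11, edgeR adjusted p = 0.00019). Upstream of Cox7a1, the heart and muscle isoform gene, the site at -2658 (chr7:30966298-30966766) had 134 and 125 in +HOT libraries, against 178 and 175 in -HOT libraries (log2FC -0.45, SE 0.13, edgeR adjusted p = 0.0113).

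The gained member was an intron site of Cox7b2, the paralogue of Cox7b, at +2452 (chr5:71936783-71937201). It had 81.4 and 73.3 reads in +HOT libraries, against 38.2 and 23.9 in -HOT libraries. Both +HOT libraries were thus well above both -HOT libraries (log2FC 1.27, SE 0.25, edgeR adjusted p = 0.000102). The other site that was higher lay at +1197 of Atp5l-ps1, a pseudogene by its symbol that the annotation lists as protein-coding, with 41.0 and 49.1 in +HOT libraries and 23.5 and 23.9 in -HOT libraries (log2FC 0.92, SE 0.30, edgeR adjusted p = 0.0237). At Cox7b itself none of the 3 sites passed, with log2FC between 0.01 and 0.35.

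**Figure D2:**
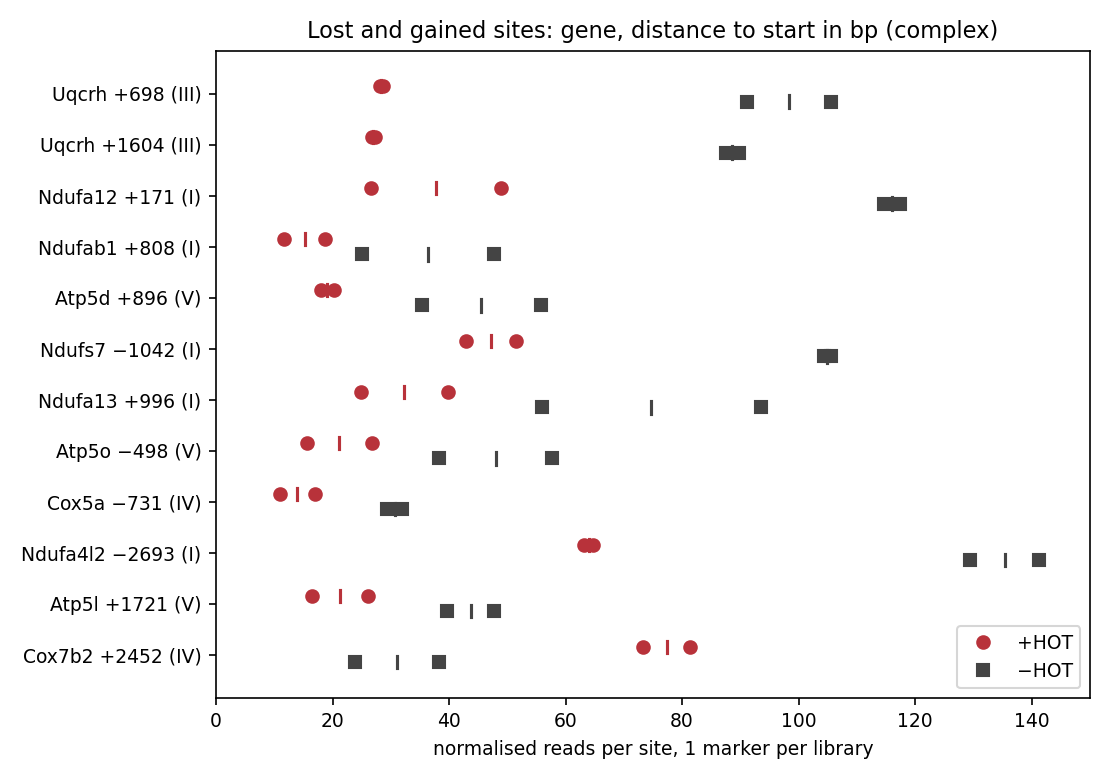
Normalised reads (horizontal axis) in each library at 11 of the 12 lost sites and the gained site; circles are +HOT, squares are -HOT and short ticks are group means. At the Uqcrh site at +698 the +HOT libraries are at 28.7 and 28.1 and the -HOT libraries at 91.2 and 105, and only Cox7b2 runs the other way.

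At complex II and the remaining complex III genes the changes were small or rested on few reads. The Sdhd site at -157 (chr9:50411954-50412269) lies in a coding exon of Timm8b, a mitochondrial import gene that starts there as well. It had 28.0025 and 17.9 reads in +HOT libraries, against 42.7 and 45.8 in -HOT libraries (log2FC -0.91, SE 0.30, edgeR adjusted p = 0.0235). The Sdhaf2 site at -876 (chr19:10600286-10600864), at the assembly factor gene for Sdha but nearer to the start of Cpsf7, had 104 and 94.4 in +HOT libraries, against 132 and 147 in -HOT libraries (log2FC -0.48, SE 0.15, edgeR adjusted p = 0.0196). Sdha encodes the flavoprotein. Its strong intron site at -1499 (chr13:74478426-74478981) had 146 and 143 in +HOT libraries and 172 and 149 in -HOT libraries (log2FC -0.17, edgeR adjusted p = 0.426), and its site at +2 (chr13:74487455-74487841) had 20.8 and 12.5 in +HOT libraries and 27.9 and 9.95 in -HOT libraries, with overlapping groups (log2FC -0.25, edgeR adjusted p = 0.749). The sites of Uqcrb, a ubiquinone-binding protein gene, at -310 (chr13:67006505-67006744) and +300 (chr13:67005878-67006150), which share the window of Gm10767, had log2FC of -0.78 and -0.79 from at most 29.4 reads and did not pass (edgeR adjusted p = 0.253 and 0.146). The 3 sites of Uqcrc2, a core protein gene, had log2FC between -0.08 and -0.04. The strongest of them, at -2473 (chr7:127775959-127776475), had 103 and 119 reads in +HOT libraries and 104 and 133 in -HOT libraries.

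A second group of sites lay directly at the starts. Within 200 bp of a start and with a mean over 100 normalised reads were 12 members, limits that were chosen after the values were seen. Of these, 11 were lower, none was gained or lost, and the log2FC of the 11 lay between -0.59 and -0.36. Among all promoter sites within the same limits 66.7% were lower. Of the 12 sites, 10 were CpG-island-like by sequence, compared with 68.7% of those promoter sites.

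Atp5g2, a gene for subunit c of the rotating ring, had the highest of these. Its site at -149 (chr15:102501359-102501895) had 298 and 314 reads in +HOT libraries, against 455 and 466 in -HOT libraries (log2FC -0.59, SE 0.08, edgeR adjusted p = 4.31e-07). The site at -175 of the accessory subunit gene Ndufa6 (chr15:82184629-82185164) had 198 and 205 in +HOT libraries, against 284 and 291 in -HOT libraries (log2FC -0.51, SE 0.10, edgeR adjusted p = 0.000196). Uqcrc1, a core protein gene of complex III, had 175 and 168 at -71 (chr9:108838321-108838860) in +HOT libraries, against 218 and 251 in -HOT libraries (log2FC -0.43, SE 0.11, edgeR adjusted p = 0.00416). Replicates were close and the groups did not overlap at these sites.

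At the start of Atp5k (subunit e, -69, chr5:108863288-108863785) 166 and 165 reads were counted in +HOT libraries, against 209 and 243 in -HOT libraries (log2FC -0.43, SE 0.12, edgeR adjusted p = 0.00517). The core gene Ndufv1 (the NADH-binding flavoprotein) had at -171 a log2FC of -0.37 (SE 0.12). The accessory genes Ndufb7, Ndufb10 and Ndufc1, the assembly factor gene Ndufaf4 and the start site of Ndufab1 had log2FC between -0.51 and -0.36, and all passed. The exception was Atp5d at +63, with 145 and 131 in +HOT libraries and 137 and 153 in -HOT libraries (log2FC -0.06, SE 0.14, edgeR adjusted p = 0.838). Atp5d thus carried a lost site at +896 and a start site whose groups overlapped.

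**Figure D3:**
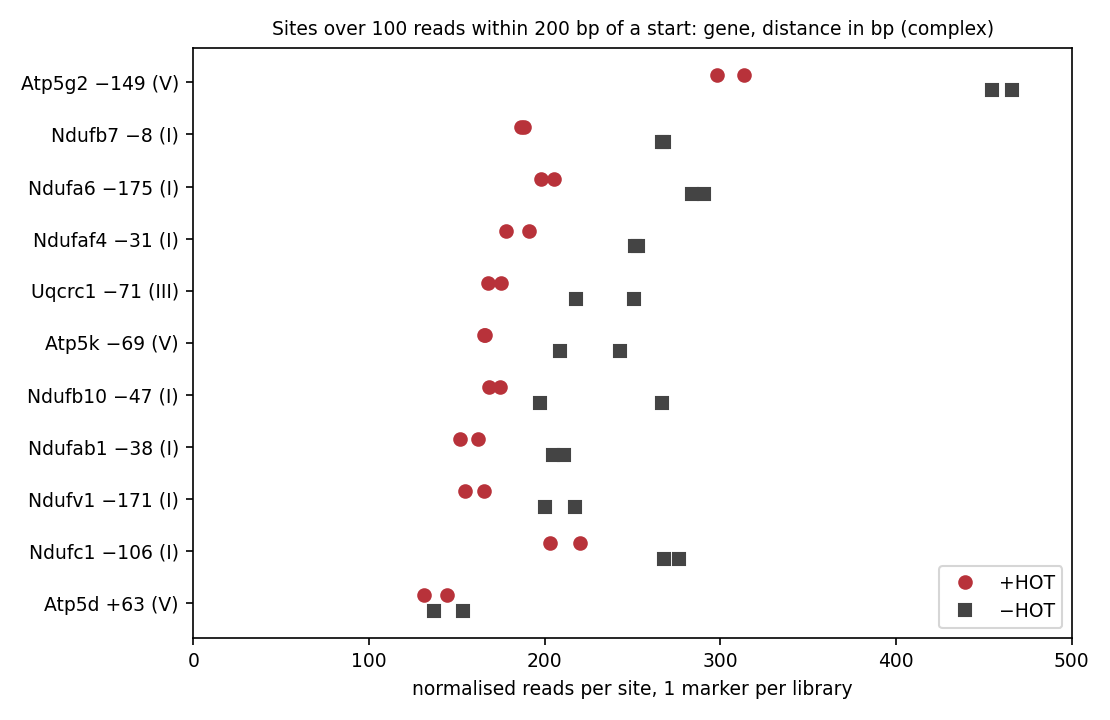
Normalised reads (horizontal axis) in each library at 11 of the 12 members within 200 bp of a start with a mean over 100 reads; circles are +HOT and squares are -HOT. All 10 sites above Atp5d have both +HOT libraries left of both -HOT libraries, whereas Atp5d overlaps.

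Strength and base composition moved with these differences. Of the members with a mean over 100 reads, 22 of 34 were lower (64.7%) with a median log2FC of -0.40, compared with 49.3% and -0.33 for promoter sites of that strength. Members up to 100 reads were lower at 15 of 60 (25%) with a median of -0.27, compared with 13.98% and -0.20, and all 12 lost sites were among them. Most lost promoter sites of any gene were weak as well, with 987 of 13379 lost up to 100 reads and 36 of 4646 over 100 reads. CpG-island-like members were lower at 13 of 23, with 1 lost and a median of -0.43, and other members at 24 of 71, with 11 lost and a median of -0.29. In the lower share and the median, promoter sites of any gene were split in a like way. Of these, 38.6% were lower with a median of -0.46 where CpG-island-like, and 18.2% with -0.18 elsewhere. In lost sites they were not split as the members were, with 299 of 4347 lost where CpG-island-like and 724 of 13678 elsewhere. All 10 members over 200 reads were lower, and so were 81.9% of promoter sites and 68.3% of all sites over 200 reads. The part of strength and GC content in the members' values was examined by scaling the libraries along both. With libraries scaled along site strength 19 members were lower, and with strength and GC 19 as well, 18 and 17 of them in common with the 37. Along strength 16.1% of promoter sites and 4.69% of all sites were then lower, and along strength and GC 11.3% and 3.94%. A single member was higher under each, against 2.66% of promoter sites and 6.16% of all sites along strength, and 4.57% and 6.03% along strength and GC.

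The same scaling divided the groups of sites. It takes out any trend shared by sites of like strength, or of like strength and GC, whatever its origin. The origin of that trend was not tested. None of the 12 strong start sites remained lower under either scaling, and their median log2FC was -0.12 along strength and 0.09 along strength and GC, compared with -0.42 under TMM. All promoter sites within the same limits had medians close to these, at -0.13 along strength, 0.09 along strength and GC and -0.41 under TMM. All 12 lost sites, chosen for an absolute log2FC above 1 under TMM, remained lower under both, with medians of -1.28 and -1.27. The start sites were chosen for strength and the lost sites for fold, so a difference between them was partly set by the choice. Under DESeq2, 7 of the 12 lost sites remained lower. The strongest sites, Ndufa4l2 -1960, Atp5l -667 and Atp5g2 -149, had log2FC of -0.08, -0.21 and 0.11 along strength and GC, none past the threshold. For Uqcrh +698 and +1604, in contrast, the call was unchanged in every alternative that was fitted. The gained Cox7b2 site also kept its call in each of them. Leaving out the -HOT library numbered 3 left 22 lower members, 5 of them lost, and leaving out the one numbered 1 left 23, with 11 lost. Of the 12 strong start sites, 5 and 7 were then lower. Without a +HOT library 28 and 33 members were lower.

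**Figure D4:**
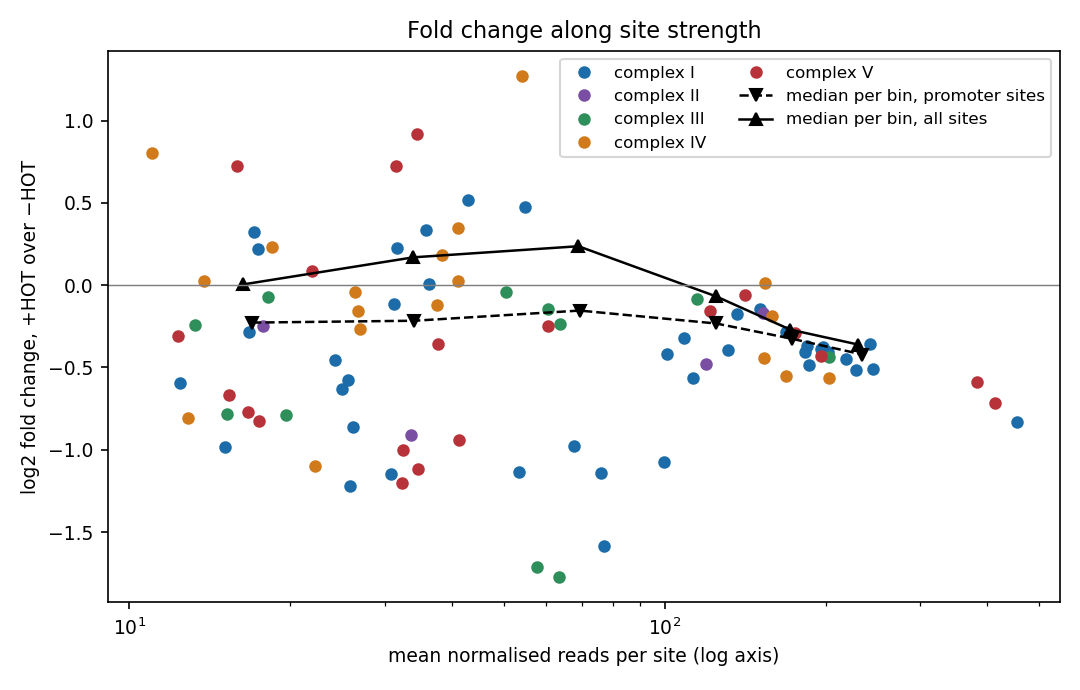
Log2 fold change (+HOT over -HOT, vertical axis) against the mean normalised reads of each member site (horizontal axis, log scale), coloured by complex; black lines join medians in bins of strength. The bin medians of all sites fall to -0.36 and those of promoter sites to -0.42 in the bin over 200 reads. The lost members lie at 100 reads or fewer and, by the fold limit that defines them, far below the lines.

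**Figure D5:**
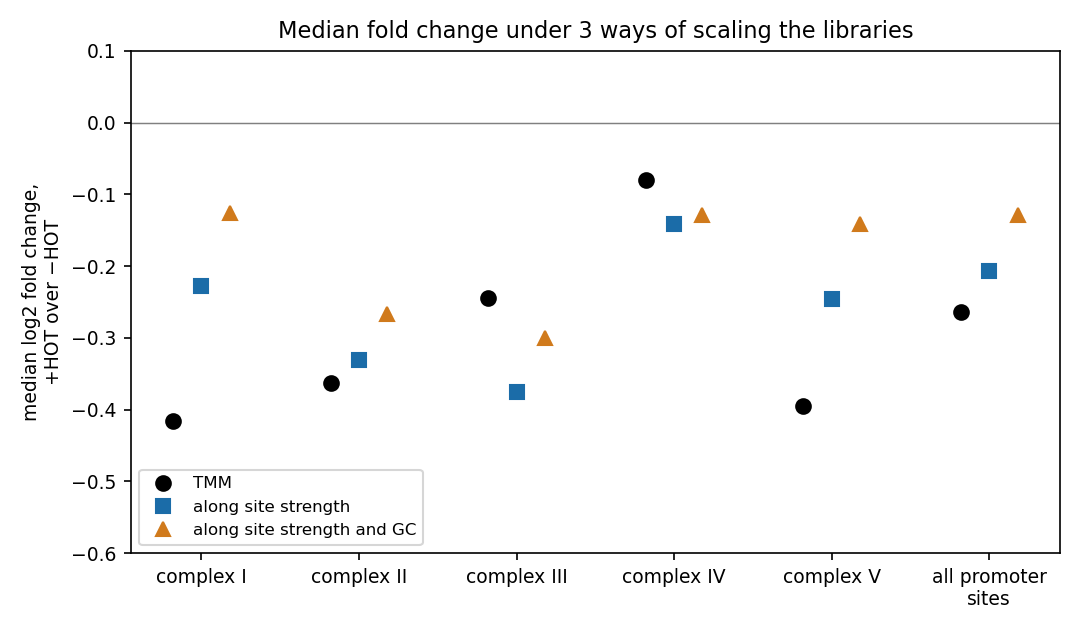
Median log2 fold change (+HOT over -HOT, vertical axis) of the tested members of each complex and of all promoter sites under TMM, scaling along site strength, and scaling along site strength and GC. Complex I has -0.42, -0.23 and -0.13, complex II -0.36, -0.33 and -0.27, and complex III -0.24, -0.38 and -0.30. Complex IV has -0.08, -0.14 and -0.13, complex V -0.40, -0.25 and -0.14, and all medians stay below 0.

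Motifs were searched on both strands in the 300 bp at the centre of each site. The CTCF core CCANNAGNNGGC was found in 44 of 97 members (45.4%), compared with 38.8% of promoter sites and 48.0% of all sites. It was present at 6 of the 12 lost members (50.0%), whereas only 21.6% of all lost promoter sites had it. Tested members with the core were lower at 17 of 42 and those without it at 20 of 52, with medians of -0.37 and -0.39. Across all promoter sites 14.4% were lower with the core and 28.6% without it, with medians of -0.14 and -0.34.

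A 20-base stretch, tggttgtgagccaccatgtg, was shared without mismatch by 4 of the 12 lost sites: Ndufab1 +808, Atp5d +896, Atp5o -498 and Atp5l +1721. It was the longest stretch held by at least 4 of the lost sites on either strand, and it was looked for after the lost sites were known. In the printed windows it lies downstream of the core ccagaagagggc, and the whole segment reads like the B2 family of short interspersed elements, a rodent repeat known to carry CTCF motifs. With up to 3 mismatches it was found in the central 300 bp of 24 members (24.7%), compared with 24.1% of promoter sites and 29.0% of all sites. Of the lost members 4 of 12 held it, a minimum that the search for the stretch had required. Of all lost promoter sites 13.8% held it, and the shares cannot be compared for that reason. Over the full width of the sites, 29 tested members carried it, of which 7 were lower, 4 of them lost, 1 was higher and 21 did not pass, with a median log2FC of -0.16. The 65 tested members without it were lower at 30 and had a median of -0.42. Promoter sites were searched in the central 300 bp only. Among them, 269 of 4233 were lower with the stretch (median -0.08) and 3893 of 13792 without it (median -0.31). In that window 5 of the 37 lower members held it. The Cox6a1 site at -2495, shown above, had 39.1 and 33.5 reads in +HOT libraries and 45.6 and 31.8 in -HOT libraries (log2FC -0.12, edgeR adjusted p = 0.833), so a matching stretch went along with a loss at some members and not at others. Reads from repeats can be hard to place, and the effect of that on these sites was not tested.

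Motifs of factors known for these genes were counted in the same windows. The NRF1 motif GCGCANGCGC was present in 6 of 20 members within 200 bp of a start. It was not counted for promoter sites within that limit. Among all 97 members it was present in 7 (7.2%), compared with 1.4% of all promoter sites. Of those 7, the sites of Ndufaf4, Sdhd, Uqcrc1, Atp5g2 and Atp5k were lower in +HOT cells, and those of Ndufs8 and Sdha (+2) did not pass. The lower share of promoter sites with this motif was not counted. Except for Sdhd, the lower sites are strong start sites, and 66.7% of promoter sites within those limits were lower. The YY1 motif ATGGCGG was found in 6.2% of members and 2.6% of promoter sites, and the ETS motif CCGGAAG in 9.3% and 3.9%. The Sp1 motif GGGCGG was found in 13.4% and 22.5%, and CCAAT in 26.8% and 25.5%. The following windows show the NRF1 motif in capitals at start sites with a lower value in +HOT cells. Ndufaf4 was chosen after its values were seen.
Ndufaf4 -31, chr4:24825093-24825152, plus strand: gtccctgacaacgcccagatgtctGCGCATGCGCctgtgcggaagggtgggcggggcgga
Atp5g2 -149, chr15:102501487-102501546, plus strand: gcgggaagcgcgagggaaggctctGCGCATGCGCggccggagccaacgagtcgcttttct

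The same letters were counted in the RefSeq promoters (build GRCm38.p6, 250 bases before to 50 after a start), which matched 76 of the 93 genes. NRF1 was found at 18 of these genes (23.7%), compared with 7.17% of 17491 protein-coding genes. The ETS motif was found at 19 (25%) against 12.9%, YY1 at 12 (15.8%) against 6.05%, and the CTCF core at 5 (6.58%) against 2.75%. Sp1 was found at 35 (46.1%) against 49.2%. A match describes the letters in this window and is no evidence of binding.

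As a measure of the whole group, the percentage of all promoter-site reads that fell in member sites was 0.624% and 0.604% in +HOT libraries, against 0.679% and 0.686% in -HOT libraries. The 95% Wilson intervals ran from 0.613% to 0.636% and from 0.592% to 0.617% in +HOT libraries, and from 0.663% to 0.696% and from 0.668% to 0.705% in -HOT libraries, and cover counting error only. The groups did not overlap, with means of 0.614% ± 0.0142 in +HOT and 0.683% ± 0.0050 in -HOT libraries (SD, n = 2 each). The difference was -0.0683 percentage points (exact permutation test, two-sided, p = 0.333, the smallest that 2 against 2 libraries allow). By complex, complex I took 0.317% ± 0.0056 in +HOT and 0.363% ± 0.0042 in -HOT libraries (SD, n = 2 each), and complex IV 0.0946% ± 0.0032 in +HOT and 0.0899% ± 0.0022 in -HOT libraries (SD, n = 2 each).

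The members nearest to the window limit were Ndufa11 at -2984, which was not tested, and Ndufa1 at -2967, with 22.1 and 14.8 reads in +HOT libraries and 14.7 and 17.9 in -HOT libraries. Just outside lay a Cox8b site at -3032, with 137 and 140 in +HOT libraries and 191 and 225 in -HOT libraries, and an Ndufa8 site at -3048, with 20.2 and 23.4 in +HOT libraries and 27.9 and 23.9 in -HOT libraries.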

How the data were processed

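CTCF ChIP-seq libraries were made by the authors from 4 immunoprecipitations and 4 inputs; the inputs were not analysed here. By the methods of the study, trimmed reads were mapped to mm9 with BWA, duplicates and blacklisted regions were taken out, and MACS2 called narrow peaks. The submitters' processing notes also name SAMtools, deepTools and DESeq2. For versions, the counter and any pooling before peak calling, nothing is given in the sources used here. Raw counts of reads per site were deposited, not normalised by the authors. Of 8 columns of per-library values, 4 columns normalised by the authors were not used, nor were their fold changes and p-values from DESeq2. Columns are numbered R1 and R3 and titles R1 and R2, so columns were assigned to groups only.

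The main test was edgeR's quasi-likelihood test (edgeR 4.0.16 under R 4.3.3) with TMM scaling, a robust fit and filterByExpr at min.count 10, with Benjamini-Hochberg adjustment over the 99560 tested sites. Changed means an adjusted p below 0.05, and gained or lost where the absolute log2FC was above 1 as well. Each count divided by its library's effective size, times the mean effective size of the 4 libraries, is a normalised read count. Libraries of 1 group differed by more than sampling noise, with a chi-square per degree of freedom of 1.37 for +HOT and 1.10 for -HOT. Totals between 3126722 and 9280701 limit the precision of sites with few reads.

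Sites were placed by their centre on NCBIM37, the assembly of mm9, with GENCODE vM1; no site lay outside it. Coordinates are 1-based. A promoter site has a protein-coding start within 3000 bp. CpG-island-like means over 50% GC with a ratio of observed to expected CpG over 0.6 in the central 500 bp. Named sites are all gained or lost members, the 5 smallest p-values and 2 highest means of each complex, genes with 3 or more sites, and sites at the window limit; 1 gene is counted but not reported here by name. Any other site named was chosen after its values were seen. Members, lists and motifs were chosen with earlier results of these data known. Alternatives were DESeq2 (1.42.0) and its size factors, total reads, scaling along site strength (lowess span 0.3) with and without GC, filters, a replicate block, windows, fold limits and leaving out each library.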

Additional observations from a re-analysis of the deposited data

How the results depend on the processing

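The count of changed members was 39 (37 lower, 2 higher) with a median log2FC of -0.38. Scaling along site strength gave 20 (19 lower, 1 higher) and -0.23, strength with GC 20 (19 lower, 1 higher) and -0.15, and DESeq2 18 (17 lower, 1 higher). Under DESeq2, 26 members had no adjusted p, against 3 in the main fit, so these counts are not over the same members. Over all sites 18449 were changed, against 10802, 9924 and 5701, and total reads turned the split from 9413 higher and 9036 lower into 10788 and 7118. The window of 1000 bp, which holds fewer sites, gave 24 changed of 47 tested (24 lower, 0 higher), 7 lost and 0 gained, and a read share difference of -0.0485 points. Of 8983 tested promoter sites within 1000 bp, 32.3% were lower and 2.24% higher, with 705 lost and 72 gained. Fold limits of 1 and 0.58 left 13 and 20 changed. Without a library in turn, where the lone library of a group is assumed to vary like the other group, 23 to 35 were changed, 22 to 33 lower, 1 to 2 higher, 1 to 2 gained and 5 to 12 lost, with medians from -0.42 to -0.37 and share differences from -0.0783 to -0.0582. The replicate block gave 41 changed (39 lower, 2 higher). Deviations of same-numbered libraries correlated at 0.0304 over 2 pairs, and the libraries share only a number. Of 29 named sites, the direction turned for Ndufa6 -175 (0.10) and Atp5g2 -149 (0.11) along strength and GC, for Sdha -1499 along strength (0.0029), for Sdha +2 along strength and GC (0.19) and without a library (0.049 and 0.75, range -0.73 to 0.75), and for Uqcrc2 -2473 without a library (0.033 and 0.070, range -0.28 to 0.070). Of 340 alternative values, 284 kept direction and side of the threshold and 48 fell short of it. The cause was not tested. Of members up to 25 reads, 1 of 23 was lower, against 5.38% of such promoter sites and 1.63% of all such sites.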

Other observations

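Sites at promoters of mitochondrial ribosomal protein genes (Mrpl and Mrps) were lower at 26 of 85 tested sites, 8 of them lost and none higher, with a median log2FC of -0.40. Assembly factors and pathway partners outside the member symbols were lower at 7 of 26 (median -0.40), citric acid cycle genes at 3 of 14 (median -0.19) and regulators of mitochondrial biogenesis at 7 of 29 (median -0.42). The background among promoter sites was 23.1% lower with a median of -0.26. Along strength and GC the medians of the 4 lists were -0.27, -0.30, -0.13 and -0.14, compared with -0.13 over all promoter sites.

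Among the regulators, the lost sites lay at Nrf1, which encodes the factor whose motif was searched above, and at Yy1, and they were named after their values were seen. The lost Nrf1 sites had log2FC of -1.56 (SE 0.25) and -1.07 (SE 0.37), with edgeR adjusted p of 3.67e-06 and 0.0307. The lost Yy1 site had -1.12 (edgeR adjusted p = 0.0139). Other sites of these genes did not pass, with log2FC of -0.15 and 0.11 at Nrf1 and -0.33 and -0.25 at Yy1. At the citric acid cycle genes, Ogdh (-1.84, edgeR adjusted p = 0.00096) and Suclg2 (-1.34, edgeR adjusted p = 0.0335) held the lost sites, named after their values were seen as well.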
